A study of Arabidopsis thaliana with 24 samples.

Results

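The response of a systemic Arabidopsis thaliana leaf to light stress applied to a different, local leaf was measured while a drop of diphenyleneiodonium (DPI) sat on the path between them. The comparison rests on 6 of the 24 libraries of the series, chosen by their labels alone: 3 of systemic leaves from DPI-treated plants whose local leaf received high light, and 3 of systemic leaves from DPI-treated control plants. All plants of both groups were wild type Col-0 of 4 to 5 weeks, grown at 23°C with 8 h of light at 50 µmol m-2 s-1 and 16 h of darkness. Both groups carried a drop of 0.3% agarose with 50 mM DPI for 15 min, so the controls had the inhibitor as well. In the high light group the local leaf was then exposed to 2000 µmol m-2 s-1 for 8 min, and the systemic leaf, which was not exposed, was frozen at once. The other 18 libraries cover the local leaves and the same design with a water drop. The paper describes sampling at the start and after 8 min of light stress. Controls frozen at the start would have had less time under their drop, and this cannot be told apart from light. Each library is a pool of leaves from many plants, and p-values therefore measure the spread between pools. Whole leaves were used, so that fewer cells of a type and less RNA per cell cannot be told apart.

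When one leaf is stressed by light, the rest of the plant can become more tolerant within minutes, a process called systemic acquired acclimation. A wave of reactive oxygen species (ROS), made by each cell along the path through the plasma membrane NADPH oxidase RBOHD, travels with calcium, electric and hydraulic signals. DPI inhibits NADPH oxidases and other flavin enzymes and is used to stop the ROS wave, so that it is not specific to RBOHD.

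The files held 32833 transcripts, of which 18314 reached 10 normalized counts in at least 3 libraries and were tested. A normalized count is a read count divided by a factor for the depth of its library. The 6 libraries held between 16216551 and 22547855 reads on genes, with 20827 to 21190 transcripts above 0, and a floor of 3 reads corresponded to 2.401 to 3.28 normalized counts. Replicates of a group correlated across genes at r between 0.992 and 0.994 and differed by more than counting noise. The leaf identity was checked with markers: the 18 mesophyll, guard cell, phloem and xylem markers were all expressed, and limma called 0 of them, with 3 at an unadjusted p under 0.05. Of the 4 epidermis markers, KCS10 fell by 0.15 (adjusted p 0.00024) on the log2 scale, and the summed epidermis level was 12106 to 12411 in high light against 13144 to 13336 in control libraries. Only 1 of 6 root markers and 1 of 2 flower markers were expressed enough to be tested, and neither was called. The root marker sum was 33.6 to 43.7 in high light and 53.7 to 66.9 in control, nearly all of it from BGLU23. Their part in the results was not tested.

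Between control and high light libraries, 1309 transcripts rose in the systemic leaf behind the DPI drop, which is 7.15% of those tested, and 835 fell, which is 4.56%. These calls use limma with Benjamini-Hochberg adjustment over all tested transcripts at a threshold of 0.05. Most changes were small: the median log2 change was 0.37 among the raised and -0.31 among the lowered transcripts, and 109 rose and 72 fell by at least 2-fold. When all libraries were instead forced to one distribution by quantile normalization, 1186 transcripts rose and 1149 fell, so that the raised share of all calls was 50.8% rather than 61.1%.

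The 10 largest rises and falls were taken among called transcripts with separate groups and a mean of at least 20 normalized counts in the higher group. The rises joined transcription factors and jasmonate regulators with little-studied proteins. AT1G70640 encodes a protein with a PB1 domain, a module by which proteins bind one another. Its transcript stood at 6.96, 6.61 and 4.36 normalized counts in control replicates 1 to 3 and at 45.8, 33.9 and 48.0 in the high light replicates. This was the largest rise, 2.65 (SE 0.40, adjusted p 2.8e-06), on a low base. AT3G01345, which the reference annotation leaves uncharacterized, went from 152, 173 and 158 to 812, 825 and 765. The groups lay far apart, and the mean was 4.98 times higher, a log2 change of 2.31 (SE 0.08, adjusted p 5e-23). ORA47, an ERF family factor that activates jasmonate synthesis genes, had 130.2, 104 and 109 in control and 433, 433 and 419 in high light libraries. That is a log2 rise of 1.90 (SE 0.11, adjusted p 1.3e-16) with no overlap between groups. JAZ7, one of the JAZ repressors of jasmonate signalling, was at 128, 139 and 128 and then at 458, 469 and 409.7, with a log2 change of 1.75 (SE 0.15, adjusted p 3.7e-12). RRTF1, a redox-responsive ERF factor also called ERF109, rose from 36.8, 19.8 and 25.3 to 84.6, 103 and 89.6, by 1.76 (SE 0.38, adjusted p 0.00068) on the log2 scale. In all of these the lowest high light library was above the highest control library, which the naming rule required.

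The other 5 of these rises likewise had groups that did not overlap. AT1G51090, with a heavy metal-associated domain, went from 77.5, 56.1 and 64.5 to 244, 253 and 239, and AT4G16563, an aspartyl protease family member, from 66.6, 71.0 and 68.9 to 205, 242 and 223. Their log2 changes were 1.89 (SE 0.15, adjusted p 3.1e-13) and 1.68 (SE 0.15, adjusted p 1.8e-11). RAS1, named for its response to abscisic acid and salt, changed by 1.54 (SE 0.23, adjusted p 1.9e-06), and its means were 97.5 ± 5.24 and 286 ± 4.26 (SD, 3 libraries each). The uncharacterized AT4G27654 changed by 2.17 (SE 0.29, adjusted p 2e-07) and AT1G11210, a DUF761 protein, by 1.77 (SE 0.22, adjusted p 7.4e-08), from levels under 35 in control libraries.

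**Figure D1:**
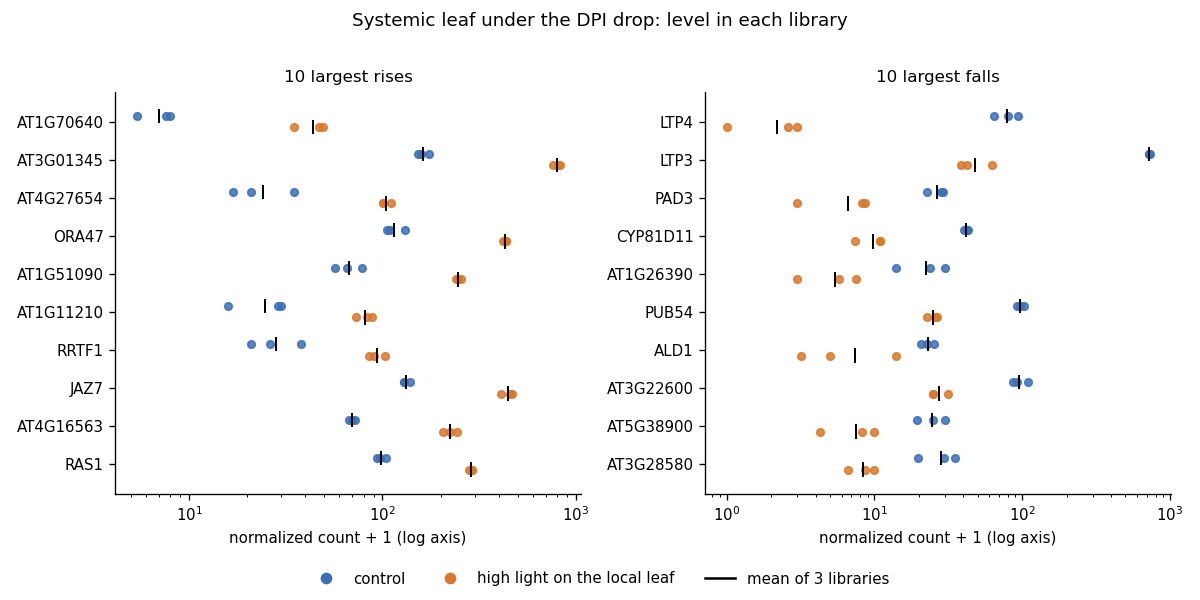
Level of the 10 transcripts with the largest rises (left) and the 10 with the largest falls (right), among called transcripts with a mean of at least 20 in the higher group and no overlap, in each of the 6 systemic libraries under the DPI drop, as normalized count + 1 on a log axis. Points are libraries and black ticks are means of 3 libraries. AT3G01345 moved from 152 to 173 up to 765 to 825, while LTP3 went from 718 to 728 down to 37.8 to 61.6.

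Above the same level limit, LTP4 and LTP3 had the largest falls, and some low transcripts outside it, such as AT1G07400 and FMO1, had larger log2 changes than others shown. LTP3 and LTP4 encode small secreted proteins that carry lipids in the cell wall and cuticle, and they are near-identical neighbours between which reads may have been shared. LTP3 stood at 718, 728 and 720.1 in control and at 37.8, 41.5 and 61.6 in high light libraries. Its mean was 15.4 times lower, a log2 change of -3.95 (SE 0.31, adjusted p 4.6e-13). LTP4 went from 79.5, 63.6 and 92.4 to 1.99, 0 and 1.60. The high light libraries were under the floor of 3 reads, so the fitted log2 change of -5.31 (SE 0.55, adjusted p 7.3e-10) depends on the added pseudocount of 1, while the control mean was 23.9 times the floor. PAD3, the cytochrome P450 that completes synthesis of the antimicrobial compound camalexin, had 21.9, 28.1 and 27.0 against 1.99, 7.65 and 7.203. ALD1, which starts the synthesis of pipecolic acid, a signal of systemic resistance, had 21.9, 19.8 and 24.4 against 12.9, 2.19 and 4.00. Both groups of values were low but separate, and the log2 changes were -2.15 (SE 0.43, adjusted p 0.00025) and -1.92 (SE 0.37, adjusted p 0.00016). CYP81D11, a P450 induced by jasmonates and foreign chemicals, fell from 41.7, 41.3 and 39.2 to 9.95, 9.84 and 6.402, a log2 change of -2.12 (SE 0.41, adjusted p 0.00016).

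PUB54, a U-box protein of the ubiquitin ligase type, went from 91.4, 102 and 95.9 to 24.9, 21.9 and 25.6. Its log2 change was -1.96 (SE 0.18, adjusted p 3.7e-11). AT3G22600, of the lipid transfer superfamily, fell from 85.5, 90.8 and 108 to 23.9, 30.6 and 24.01, a log2 change of -1.82 (SE 0.23, adjusted p 7.1e-08). The other 3 falls, in AT1G26390, AT5G38900 and AT3G28580, were between -2.08 and -1.73 on the log2 scale and started from control levels of no more than 33.9. These loci encode a berberine-bridge-type oxidase, a thioredoxin superfamily protein and a P-loop NTPase.

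Short stretches of promoters are shown because several of the factors named here are known to bind particular letters. The 250 bases before each gene's start were read by locus from RefSeq's TAIR10.1 assembly, whereas the authors name the build TAIR10, and none of the stretches shown overlaps a different gene. Each motif was counted on both strands whether or not it overlapped a different one. A G-box (CACGTG on either strand), bound by MYC, PIF and bZIP factors, was in 3 of the 10 promoters of the largest rises and 1 of the 10 of the largest falls. Over all tested transcripts 7.49% of 17832 promoters held one, and among raised and lowered transcripts 9.46% and 8.4%. The 3 promoters are given with the G-box in capitals, at chr1:3757180-3757248 on the minus strand for AT1G11210, chr4:16451702-16451787 on the plus strand for RRTF1 and chr2:14572956-14573029 on the plus strand for JAZ7.
AT1G11210: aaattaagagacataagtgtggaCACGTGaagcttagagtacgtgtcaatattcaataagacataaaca
RRTF1: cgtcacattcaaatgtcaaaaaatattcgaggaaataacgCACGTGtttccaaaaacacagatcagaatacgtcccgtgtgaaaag
JAZ7: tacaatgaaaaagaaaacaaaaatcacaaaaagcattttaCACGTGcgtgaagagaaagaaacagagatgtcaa

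The rapid stress response element (CGCGTT on either strand), bound by calmodulin-binding CAMTA factors, was in 104 of 1300 promoters of raised transcripts (8%), in 13 of 833 of lowered ones (1.56%) and in 2.88% over all tested. None of the 10 largest rises held it and 1 of the 10 largest falls did. The evening element (AAATATCT), bound by clock factors, was in 9.31% of raised, 4.2% of lowered and 5.05% of all tested promoters. For the W-box (TTGACC or TTGACT), bound by WRKY factors, the shares were 35.9%, 29.5% and 27.8%. It was in 1 of the 10 largest rises and in 5 of the 10 largest falls. The raised and lowered sets were made from these data, so the shares are descriptions with no test. The element is shown in capitals for the xyloglucan enzyme XTH18 (chr4:14827242-14827327, minus strand) and the stress factor BZIP60 (chr1:16137588-16137673, minus strand), both raised here. In lower case, the XTH18 stretch also holds a W-box and the BZIP60 stretch a G-box.
XTH18: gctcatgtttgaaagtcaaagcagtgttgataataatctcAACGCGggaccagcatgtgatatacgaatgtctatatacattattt
BZIP60: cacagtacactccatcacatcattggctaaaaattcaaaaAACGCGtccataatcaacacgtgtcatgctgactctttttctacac

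Transcription factors of the rapid stress response rose behind the DPI drop. Of 26 tested zinc finger, DREB and ERF factors, 20 rose and 1 fell, with a median log2 change of 0.75 against 0.00 over all tested transcripts. Every list count for this comparison can be read beside the 7.15% raised and 4.56% lowered over all tested transcripts. DDF1, a relative of the cold-response CBF factors, was at 185, 156 and 149.9 in control and 471, 392 and 399 in high light libraries, and ERF11, a repressor of the ERF family, at 93.4, 107 and 96.8 and 245, 246 and 225. In both the groups were separate, and the log2 changes were 1.36 (SE 0.26, adjusted p 0.00018) and 1.26 (SE 0.15, adjusted p 1.6e-08). ZAT12, a zinc finger factor of the ROS response, moved less, from 44.7, 35.5 and 39.2 to 59.7, 73.2 and 80.8, a log2 change of 0.82 (SE 0.15, adjusted p 0.0001). Its relatives ZAT10 and ZAT6 changed by 0.80 (adjusted p 2.2e-11) and 0.63 (adjusted p 0.0019), and the cold-response factor CBF2 by 0.81 (adjusted p 1.9e-08). The one member that fell, AT2G28200, went from 50.7, 57.8 and 68.0 to 39.8, 33.9 and 32.8, a log2 change of -0.71 (SE 0.17, adjusted p 0.0023). ERF105 was at 0 in all 24 libraries and could not be tested, and whether this reflects its expression or the counting was not tested.

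Of 18 WRKY and MYB stress factors, 11 rose and 0 fell, with a median of 0.40. By edgeR and by DESeq2 0 fell as well, and 1 did at an unadjusted limma p under 0.05. MYB44, a factor of abscisic acid responses, went from 1235, 1362 and 1346 to 2435, 2478 and 2759, by 0.96 (SE 0.06, adjusted p 8.7e-17). MYB73, from the same subgroup, and WRKY40, a regulator of defence and chloroplast signalling, rose by 0.90 (SE 0.08, adjusted p 7.3e-11) and 0.89 (SE 0.09, adjusted p 3e-10). WRKY40 had 481, 458 and 473 in control and 846, 858 and 918 in high light libraries, and these groups were separate as well. WRKY48, at 50.7, 51.2 and 62.8 and 104, 81.99 and 100.03, rose by 0.79 (SE 0.22, adjusted p 0.014), and that call was lost without high light replicates 1 or 3 or control replicates 1 or 2 (adjusted p 0.053 to 0.073).

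Calcium, touch and MAP kinase genes that changed went up: 11 of 22 passed the test, all upward, with a median log2 change of 0.31. At an unadjusted limma p under 0.05, and by edgeR and DESeq2, 12 rose and 0 fell. TCH4, a touch-induced enzyme that remodels xyloglucan in the wall, was at 4968, 4389 and 4441 in control and at 11133, 10447 and 10735 in high light libraries. The mean was 2.34 times higher, and the log2 change of 1.23 (SE 0.04, adjusted p 2e-23) came with groups that did not overlap. CPK28, a calcium-dependent kinase that dampens immune signalling, went from 1026, 1092 and 1032 to 2492, 2430.2 and 2406, by 1.22 (SE 0.05, adjusted p 8.3e-21). MPK3, a MAP kinase of many stress responses, went from 3087, 3040.2 and 2921 to 5110.2, 4940.2 and 4863, by 0.72 (SE 0.04, adjusted p 4.8e-19). The groups of CPK28 and of MPK3 were separate too. CML38, a calmodulin-like protein, and PUB23, a U-box ubiquitin ligase that limits immune signalling, rose by 1.02 (SE 0.15, adjusted p 2.8e-06) and 0.84 (SE 0.17, adjusted p 0.0003). The glutamate receptor-like channels GLR3.3 and GLR3.6, which carry wound signals between leaves, had log2 differences of -0.02 (adjusted p 0.9) and -0.21 (adjusted p 0.37).

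Jasmonate genes moved in both directions. Of 25 tested members 15 rose and 3 fell, with a median of 0.46. Among synthesis enzymes, LOX4 and AOC3 rose by 0.95 (adjusted p 7e-16) and 1.18 (adjusted p 2.9e-08), while LOX2, the most abundant lipoxygenase of the list, fell from 20088, 21348 and 21689 to 17047, 17389.7 and 17761. The groups of LOX2 were separate although the log2 change was only -0.27 (SE 0.04, adjusted p 1.7e-07). Among JAZ repressors, 8 rose: JAZ1, JAZ2 and JAZ5 to JAZ10. JAZ1 went from 436, 479.7 and 406 to 1046, 1037 and 1012, by 1.23 (SE 0.10, adjusted p 7.7e-13), and JAZ8 from 40.7, 32.2 and 28.8 to 91.5, 85.3 and 81.6, by 1.33 (SE 0.28, adjusted p 0.00043). The enzymes that oxidize and so inactivate the active hormone rose too: CYP94C1 from 117, 93.3 and 95.0 to 302, 267 and 258, by 1.43 (SE 0.15, adjusted p 9.5e-10), and CYP94B3 by 1.31 (SE 0.29, adjusted p 0.0012). JAR1, which makes the active hormone, fell by 0.21 (adjusted p 0.00035). VSP2, a storage protein that accumulates after jasmonate exposure, was at 653, 685 and 667 and at 424, 460.2 and 439, a log2 change of -0.60 (SE 0.15, adjusted p 0.0056). JAZ transcripts resemble one another and may share reads. MYC2 was at 0 in all 24 libraries and could not be tested, and whether this reflects its expression or the counting was not tested.

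**Figure D2:**
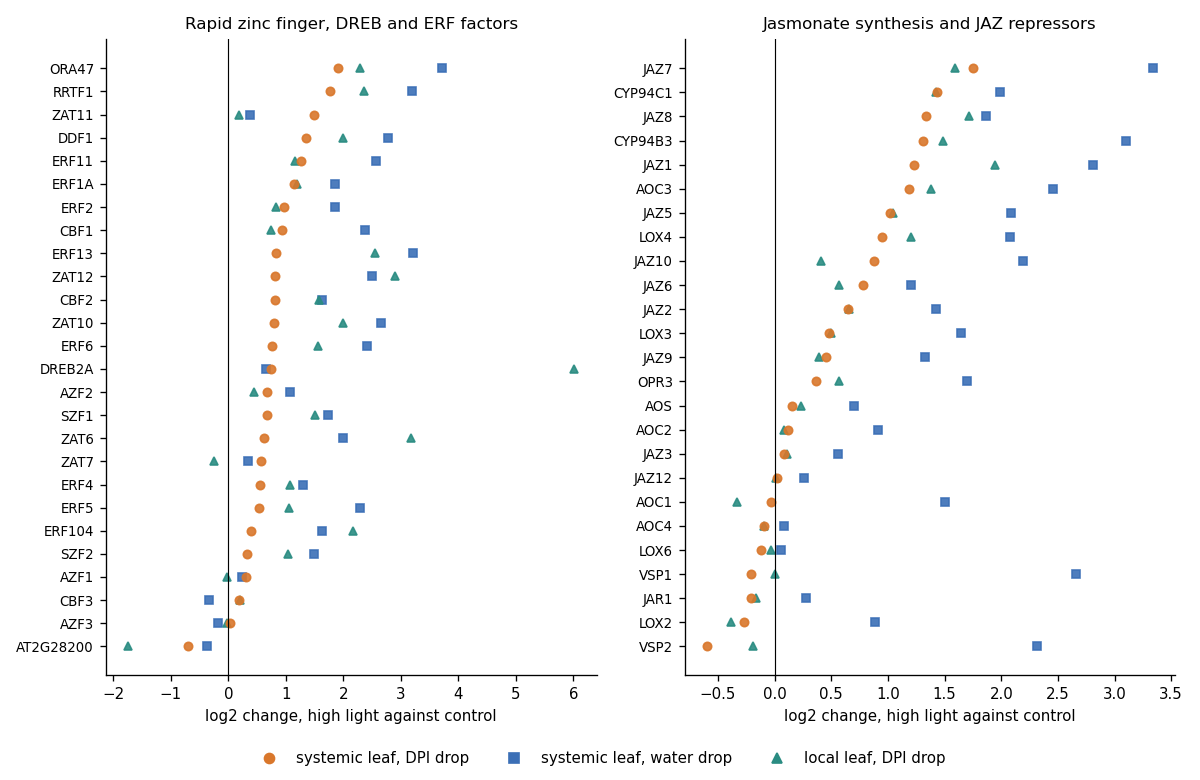
Log2 change of high light against control for the tested zinc finger, DREB and ERF factors (left) and jasmonate genes (right), in the systemic leaf under DPI (circles), the systemic leaf under water (squares) and the local leaf under DPI (triangles). Behind the DPI drop, ORA47 rose by 1.90 and JAZ7 by 1.75, and their values under water were 3.72 and 3.34.

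Salicylic acid and defence genes went mostly down. Of 17 tested members 9 fell and 2 rose, with a median of -0.35. ICS1, the main enzyme of salicylic acid synthesis, went from 985, 889 and 972 to 700.5, 631 and 686, and PBS3, which acts after it, from 262, 272 and 275 to 149, 113 and 102. The log2 changes were -0.50 (SE 0.07, adjusted p 2.4e-06) and -1.17 (SE 0.15, adjusted p 5.6e-08), with no overlap in either. FMO1, which makes the mobile resistance signal N-hydroxypipecolic acid, had 14.9, 12.4 and 13.9 in control and 2.98, 0 and 0.800 in high light libraries. The high light levels are close to or under the floor, and the fitted change of -2.93 (SE 0.53, adjusted p 6e-05) depends on the pseudocount. CYP71A13, of camalexin synthesis, fell by 1.78 (SE 0.48, adjusted p 0.0087), from 6.96, 9.08 and 17.44 to 0.995, 2.19 and 4.802, and the call was lost without high light replicate 1 or control replicate 3 (adjusted p 0.091 to 0.095). CYP71A13 passed the level filter only with the local leaf libraries, and it may share reads with its close copy CYP71A12. The 2 members that rose were CBP60G, a factor that activates ICS1, by 0.30 (SE 0.05, adjusted p 7.1e-05), and GRX480, a glutaredoxin that antagonizes jasmonate responses, from 46.7, 56.1 and 46.2 to 108, 107 and 148, by 1.26 (SE 0.22, adjusted p 2.5e-05). With only transcripts averaging at least 50 normalized counts tested, 5 members of the list fell instead of 9, since the others are too low to enter.

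With LTP3 and LTP4 counted, 6 of 17 lipid transfer and cuticle genes fell and 2 rose, with a median of -0.15. WSD1, a wax ester synthase, went from 224, 205 and 215 to 131, 126 and 129.6, a log2 change of -0.73 (SE 0.10, adjusted p 1e-06). The fatty acid elongases KCS6 and KCS10 and the wax exporter CER5 changed by -0.29 (adjusted p 2e-08), -0.15 (adjusted p 0.00024) and -0.25 (adjusted p 4e-08). MYB96, an activator of wax synthesis, rose from 1233, 1178 and 1161 to 1513, 1516 and 1545, by 0.36 (SE 0.05, adjusted p 2.1e-07), and the elongase KCS1 by 0.12 (SE 0.04, adjusted p 0.027), the latter a call that was lost without high light replicates 1 or 3 or control replicates 2 or 3 (adjusted p 0.081 to 0.19) and under quantile normalization (adjusted p 0.3).

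Detoxification genes showed both directions, with 7 of 23 falling, 4 rising and a median of -0.13. PDR12, a membrane transporter also called ABCG40, went from 125, 163 and 151 to 40.8, 44.8 and 44.8, a log2 change of -1.72 (SE 0.18, adjusted p 6.2e-10). Its groups were far apart. The glutathione transferases GSTF6 and GSTF7, a similar pair that may share reads, changed by -0.58 (adjusted p 5e-07) and -0.78 (adjusted p 6.1e-11). GSTU1 fell by 0.79 (SE 0.24, adjusted p 0.025), a call lost without high light replicates 1 or 3 or control replicates 2 or 3 (adjusted p 0.068 to 0.13), and GSTU24 went from 6.96, 8.26 and 10.5 to 0.995, 1.09 and 2.401, all of the latter at or under the floor. The members that rose were GSTF8, OPR1, the alternative oxidase AOX1A and the mitochondrial outer membrane protein OM66, each by between 0.19 and 0.37 on the log2 scale. At a mean of at least 50 normalized counts, 4 members fell in place of 7.

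Heat shock transcripts that changed in the systemic leaf nearly all went down, while most of the list rose steeply in the lit leaf of DPI-treated plants. Of 35 tested heat shock factors and chaperones 14 fell and 2 rose in the systemic leaf, with a median of -0.16. Over all tested transcripts 4.56% fell and 7.15% rose. The level filter covered all 24 libraries. AT1G53540 and HSP17.6II, counted among the falls, passed it only with the local leaf libraries, where they rose steeply. HSP90.1, an inducible cytosolic chaperone, had 389.5, 353 and 447 in control and 143, 201 and 163 in high light libraries. Its log2 change was -1.23 (SE 0.08, adjusted p 1.3e-14) and the groups did not overlap. HSP70, an inducible chaperone of the cytosol, went from 1178, 1195 and 1222 to 755, 692 and 765, a log2 change of -0.70 (SE 0.04, adjusted p 6.2e-16), and HSP101, which dissolves protein aggregates, a log2 change of -0.48 (adjusted p 6.5e-08). The co-chaperone ROF2 and the coactivator MBF1C changed by -0.56 (adjusted p 4.4e-07) and -0.41 (adjusted p 0.00025). The abundant HSC70-1 and HSP90.2 fell by no more than 0.17 on the log2 scale.

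Small heat shock proteins hold unfolding proteins in solution, and their transcripts are hard to tell apart by short reads. The ones named here stayed under 42 normalized counts in all 6 libraries. AT1G07400 stood at 10.9, 19.0 and 14.8 and then at 2.98, 0 and 0.800, and HSP17.6A at 10.9, 4.13 and 7.85 and then at 0, 2.19 and 0. Their fitted log2 changes of -3.01 (SE 0.33, adjusted p 2.7e-09) and -2.47 (SE 0.33, adjusted p 2.3e-07) depend on the pseudocount because the high light values are at or below 3 reads, and so does that of HSP17.6II, -2.30 (SE 0.35, adjusted p 2.6e-06). HSP23.6-MITO was under the floor in both groups although it was called. AT2G29500, at 26.8, 33.0 and 30.5 and 20.9, 17.5 and 18.4, fell by 0.64 (SE 0.17, adjusted p 0.0055), a call that was lost in edgeR (adjusted p 0.078) and with only the groups compared (adjusted p 0.076). AT1G53540 and AT1G59860 had overlapping groups. Their calls of -1.40 (SE 0.43, adjusted p 0.024) and -0.82 (SE 0.19, adjusted p 0.0018) were lost without high light replicates 1 or 3 or control replicate 1 (adjusted p 0.052 to 0.25) for the former and without control replicate 3 (adjusted p 0.0502) for the latter, and edgeR and DESeq2 did not call AT1G53540 (adjusted p 0.092 and 0.14). The 2 that rose were the factor HSFA4A, by 0.28 (SE 0.08, adjusted p 0.0084), and the cochaperone BAG6, by 0.39 (SE 0.11, adjusted p 0.017). The first call was lost without high light replicate 2 (adjusted p 0.054) and the second without high light replicate 2 or control replicates 1 or 2 (adjusted p 0.056 to 0.18). HSFA2, a factor that sustains the heat response, had 60.6, 58.6 and 47.1 and 59.7, 47.0 and 70.4 in the systemic leaf, overlapping groups with a difference of 0.08 (SE 0.10, adjusted p 0.76).

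In the local leaf under DPI 32 of the 35 rose, against 17.9% of all tested transcripts, with a median of 6.09. HSFA2 there had 65.7, 70.0 and 71.4 in control and 18352, 18466 and 18179 in high light libraries, and HSP90.1 had 477, 574 and 569 and 20419.7, 20623 and 19573. Under the water drop the systemic list had 4 members raised and 6 lowered, beside 7.66% and 3.1% of all tested transcripts, with a median of 0.00. There HSP90.1 changed by -0.30 (SE 0.08, adjusted p 0.015). A heat shock element, in which the blocks GAA, TTC and GAA follow one another at 2 bases' distance on either strand, was in 6 of the 35 promoters and in 0.432% over all tested. Both examples show it in capitals, AT1G53540 at chr1:19980206-19980298 and HSFA2 at chr2:11135496-11135588, each on the plus strand, and the HSFA2 stretch also holds a G-box in lower case.
AT1G53540: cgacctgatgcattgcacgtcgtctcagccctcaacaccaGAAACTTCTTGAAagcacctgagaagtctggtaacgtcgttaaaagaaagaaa
HSFA2: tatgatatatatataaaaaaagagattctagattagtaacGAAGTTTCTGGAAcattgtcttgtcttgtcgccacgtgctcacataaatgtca

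**Figure D3:**
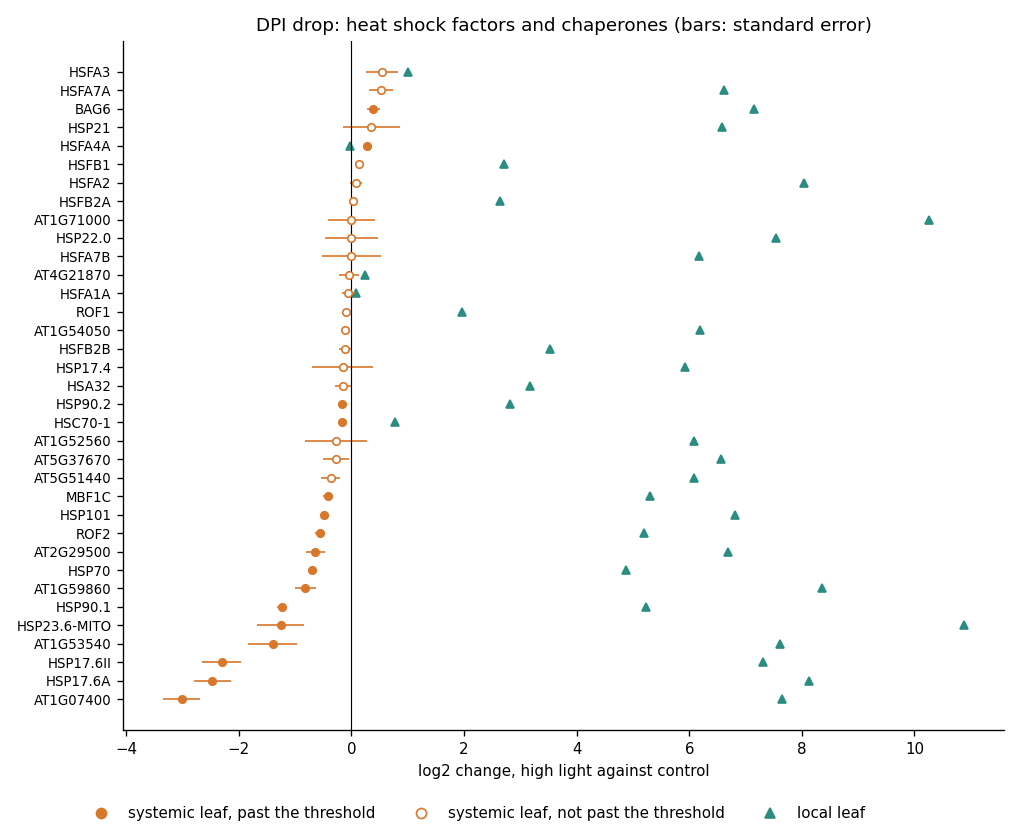
Log2 change of high light against control for the 35 heat shock factors and chaperones under the DPI drop, in the systemic leaf (circles with standard errors, filled where past the threshold) and in the local leaf (triangles). In the systemic leaf 14 fell and 2 rose, and in the local leaf 32 rose, with medians of -0.16 and 6.09.

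Among light signalling and flavonoid genes falls prevailed. Of 24 tested members 11 fell and 1 rose, with a median of -0.22. CHS, the entry enzyme of flavonoid synthesis, went from 375, 476 and 415 to 180.1, 201 and 204, a log2 change of -1.10 (SE 0.11, adjusted p 5.7e-10), and the next enzyme CHI by -0.43 (adjusted p 0.00063). BBX31, a B-box factor of ultraviolet and high light responses, went from 44.7, 36.3 and 47.9 to 13.9, 16.4 and 14.4, a log2 change of -1.46 (SE 0.18, adjusted p 4.2e-08). HY5, the central bZIP factor of light signalling, was at 97.4, 85.05 and 85.4 and at 53.7, 62.3 and 56.0, a log2 change of -0.63 (SE 0.11, adjusted p 5.2e-05). Its relative HYH and its target RUP2 changed by -0.38 (adjusted p 0.0002) and -0.48 (adjusted p 4.1e-05). ELIP1, a chlorophyll-binding protein made under light stress, fell by 0.99 (SE 0.24, adjusted p 0.003), from 32.8, 32.2 and 28.8 to 11.9, 23.0 and 12.8. In each of CHS, BBX31, HY5 and ELIP1 the highest high light library was below the lowest control library. The one rise, in BBX22, was 0.25 (SE 0.07, adjusted p 0.013) and was lost without control replicates 2 or 3 (adjusted p 0.059 to 0.13).

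Nuclear photosynthesis genes gave a single call. Of 37 tested, only GAPA, a Calvin cycle dehydrogenase subunit, passed the test. It had 52216, 51803 and 51769.7 in control and 46485, 46952 and 49471 in high light libraries, and the change of -0.13 (SE 0.04, adjusted p 0.016) was lost without high light replicates 1 or 2 or control replicate 1 (adjusted p 0.058 to 0.1). The members of the list ranged from -0.13 to 0.26 on the log2 scale.

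Clock genes moved in both directions, with 9 of 27 falling and 4 rising. The morning factors fell: LHY from 1542, 1518 and 1503 to 938, 936 and 942 and its relative RVE1 from 379.6, 384 and 377 to 118, 125 and 114. These are log2 changes of -0.70 (SE 0.04, adjusted p 2e-17) and -1.67 (SE 0.07, adjusted p 3.7e-20), with replicates that lay close together. CCA1, the partner of LHY, changed by -0.25 (adjusted p 1e-07), the repressor PRR9 by -0.50 (SE 0.04, adjusted p 1e-11) and COL2, a relative of the flowering regulator CONSTANS, a log2 change of -0.54 (SE 0.05, adjusted p 3.4e-12). The members that rose were TOC1 and GI, which peak in the evening, by 0.47 (SE 0.10, adjusted p 0.00054) and 0.45 (SE 0.05, adjusted p 2.1e-08), together with CHE, a repressor of CCA1, and the RNA-binding protein GRP7, by 0.34 (SE 0.05, adjusted p 7e-06) and 0.44 (SE 0.07, adjusted p 2.4e-06).

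Abscisic acid and cold response genes were split, with 12 of 29 rising, 5 falling and a median of 0.02. Cold-regulated genes were among the rises: ERD10, a dehydrin, went from 4861, 4819.6 and 4807 to 8622, 8629.8 and 8613, by 0.84 (SE 0.04, adjusted p 1.4e-20). The groups were tight and far apart. Its relative COR47 and the stress gene RD29A rose by 0.67 (adjusted p 1.1e-16) and 0.67 (adjusted p 6.3e-16). CYP707A1, which breaks down abscisic acid, and RD26, a NAC factor, went from 57.6, 55.3 and 55.8 to 106, 139 and 114 and from 204, 199 and 173 to 415, 359 and 385, by 1.07 (SE 0.19, adjusted p 3.4e-05) and 1.01 (SE 0.10, adjusted p 6.2e-10). A second NAC factor, NAC055, rose by 0.93 (SE 0.26, adjusted p 0.012), a call lost without high light replicate 2 or control replicate 1 (adjusted p 0.067 to 0.14). The 5 that fell were the phosphatases ABI1 and HAB1, which block abscisic acid signalling, the homeodomain factor HB12, the dehydration gene RD22 and RD29B. HB12 went from 223, 255 and 281 to 164, 181 and 164, a log2 change of -0.57 (SE 0.08, adjusted p 1.4e-06), while RD29B changed by -0.92 (SE 0.30, adjusted p 0.039) and ABI1 by -0.21 (SE 0.06, adjusted p 0.021). The call of RD29B was lost without any 1 of 5 libraries, high light replicates 1 or 3 or control replicates 1, 2 or 3 (adjusted p 0.072 to 0.2), and that of ABI1 without high light replicates 2 or 3 or control replicates 1 or 3 (adjusted p 0.075 to 0.12).

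Xyloglucan enzymes rose while 2 expansins and 4 aquaporins fell. Of 34 tested genes 8 rose, all of them XTH enzymes that cut and rejoin xyloglucan, and 6 fell. The 8 include TCH4, also called XTH22, which is counted in the calcium list as well. XTH23 went from 59.6, 46.2 and 51.4 to 141, 133 and 138 and XTH18 from 162, 163 and 112 to 331, 359.7 and 356, by 1.38 (SE 0.20, adjusted p 8.5e-07) and 1.27 (SE 0.16, adjusted p 3.3e-08). XTH17 rose by 1.24 (SE 0.37, adjusted p 0.019), a call lost without high light replicates 2 or 3 or control replicates 2 or 3 (adjusted p 0.056 to 0.076). EXPA1, an expansin that loosens walls, went from 4631, 4786 and 4860.2 to 2502, 2602 and 2637, a log2 change of -0.88 (SE 0.04, adjusted p 8.3e-21), and EXPA8 by -0.40 (adjusted p 7.1e-09). The remaining falls were in the water channels PIP1;2, PIP2;1, PIP2;2 and PIP2;3, between -0.25 and -0.10 on the log2 scale, and PIP2;2 and PIP2;3 are near-identical copies. Without high light replicate 1 only 3 members of this list fell.

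The remaining lists are read beside the same shares, 7.15% raised and 4.56% lowered over all tested transcripts. Of 23 PIF, shade and auxin genes 6 rose and 3 fell: the auxin repressor IAA6 rose by 0.73 (SE 0.13, adjusted p 4.7e-05), and its relatives IAA29 and IAA14 and the shade factor HFR1 changed by -0.71 (SE 0.16, adjusted p 0.0017), -0.31 (SE 0.07, adjusted p 0.0011) and -0.32 (SE 0.05, adjusted p 1.3e-05). Of 12 ethylene genes, the synthesis enzymes ACS6 and ACS11 rose, from 2131, 1970.1 and 1971 to 3126, 2998 and 3014 and from 355, 291 and 301 to 526, 426 and 487. Their log2 changes were 0.59 (SE 0.05, adjusted p 6.3e-13) and 0.60 (SE 0.13, adjusted p 0.00062). ACO4, the enzyme of the last step, fell by 0.17 (SE 0.05, adjusted p 0.019), a call lost without high light replicates 2 or 3 or control replicate 1 (adjusted p 0.087 to 0.17), in DESeq2 (adjusted p 0.068) and with no filter on low values (adjusted p 0.071). Of 17 genes of dark and sugar starvation 3 rose and 2 fell, among them the asparagine synthetase ASN1 by -0.24 (SE 0.05, adjusted p 0.00016) and the trehalose phosphate synthase family members TPS5 by -0.28 (SE 0.05, adjusted p 0.00016), TPS8 by 0.29 (SE 0.03, adjusted p 3.7e-09) and TPS11 by 0.20 (SE 0.05, adjusted p 0.0019). DRM2, the third rise, changed by 0.29 (SE 0.08, adjusted p 0.012) and lost the call without high light replicate 1 or control replicate 3 (adjusted p 0.061 to 0.13). Of 14 unfolded protein response genes only the stress factors BZIP60 and BZIP28 rose, by 0.28 (SE 0.06, adjusted p 0.00027) and 0.24 (SE 0.06, adjusted p 0.0019). Of 8 copper homeostasis genes 0 passed the test in limma, edgeR or DESeq2 and 1 had an unadjusted limma p under 0.05, with log2 differences between -0.14 and 0.13.

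Genes that make or remove ROS were mostly steady, with 3 rising and 3 falling of 24 tested. RBOHD itself, the oxidase of the ROS wave, rose from 1190.4, 1204 and 1234 to 1839, 1826 and 1801. The groups were separate and the log2 change was 0.59 (SE 0.04, adjusted p 3.7e-14). The catalases, which break down hydrogen peroxide, went opposite ways, CAT1 up by 0.35 (SE 0.08, adjusted p 0.00081) and the leaf form CAT2 down by -0.22 (SE 0.04, adjusted p 0.0002). VTC2, the main control enzyme of ascorbate synthesis, fell from 15439, 15145 and 15648 to 11144, 11537 and 11420.0, a log2 change of -0.44 (SE 0.03, adjusted p 8e-15), and its minor copy VTC5 rose by 0.21 (SE 0.05, adjusted p 0.0066). DHAR1, which recycles ascorbate, fell by 0.15 (SE 0.04, adjusted p 0.013). The call of VTC5 was lost without high light replicate 2 (adjusted p 0.057) and that of DHAR1 without high light replicate 1 or control replicate 1 (adjusted p 0.075 to 0.081), and under quantile normalization or without high light replicate 3, 5 members of the list fell instead of 3.

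**Figure D4:**
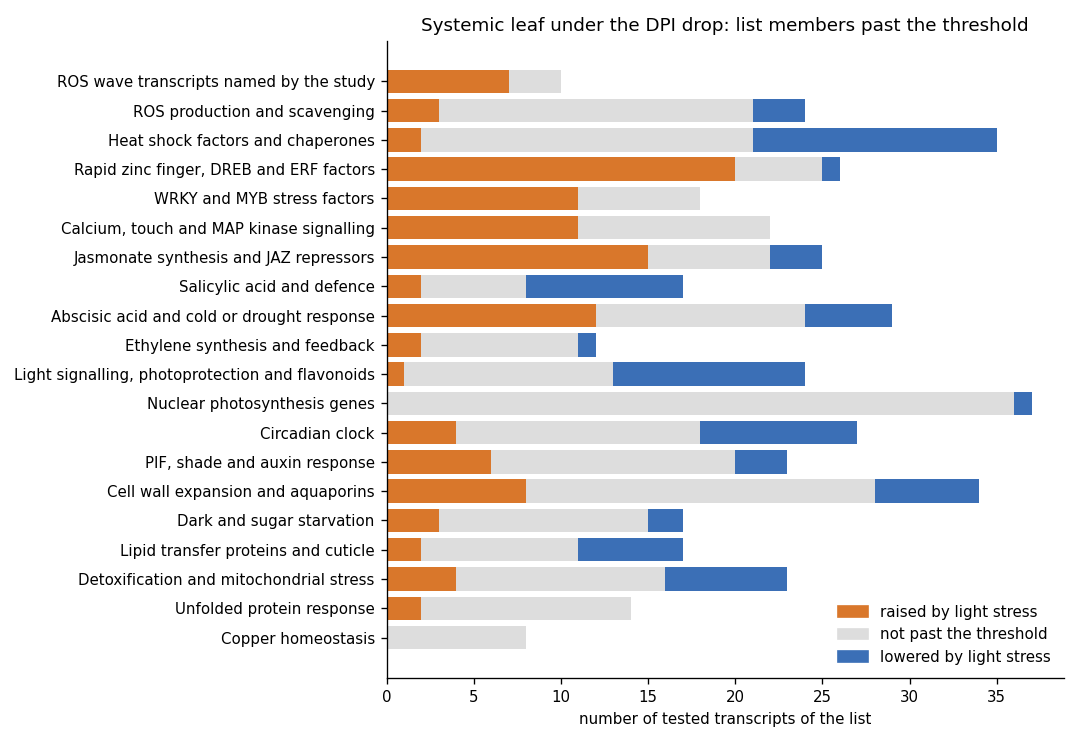
Number of tested transcripts in each of the 20 gene lists that rose (orange), fell (blue) or did not pass the threshold (grey) in the systemic leaf under the DPI drop. Rises prevail among zinc finger, DREB and ERF factors (20 of 26) and jasmonate genes (15 of 25), and falls among heat shock (14 of 35), defence (9 of 17) and light signalling genes (11 of 24).

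From the transcripts that the study ties to the ROS wave, 10 were taken up: 7 whose mutants it tested, the factors WRKY53 and MYB30, and RBOHD. Of these WRKY48, WRKY53, MYB30 and RBOHD are also members of lists above. The study chose WRKY53 and MYB30 with the DPI libraries in use, so their direction here is not independent evidence. Behind the DPI drop 7 of them rose and 0 fell by limma, edgeR and DESeq2 alike, with a median of 0.39, and at an unadjusted limma p under 0.05 there were 9 rises and 0 falls. GATA8, a GATA zinc finger factor, went from 1210.3, 1252 and 1238 to 2308, 2423 and 2440.1, by 0.95 (SE 0.05, adjusted p 5.6e-19). Beside GATA8, RBOHD and WRKY48, the rises were in AT1G69890, an actin cross-linking family protein (0.52, SE 0.11, adjusted p 0.00041), AT3G13600, a calmodulin-binding protein (0.66, SE 0.19, adjusted p 0.013), AT1G56520, an immune receptor (0.25, SE 0.06, adjusted p 0.004), and AT1G29670, a GDSL lipase (0.23, SE 0.04, adjusted p 3.4e-05). WRKY48 and AT3G13600 are the less certain of these, since the first call was lost without high light replicates 1 or 3 or control replicates 1 or 2 (adjusted p 0.053 to 0.073) and the second without high light replicate 1 or control replicate 2 (adjusted p 0.072 to 0.1). The immune receptor AT5G46270 was at 791, 769.5 and 764 and 838, 791 and 766, WRKY53 at 267, 230.4 and 243 and 273, 289 and 293, and MYB30 at 565, 539 and 539.6 and 623, 629 and 611. These 3 did not pass, with log2 differences of 0.04 (SE 0.05, adjusted p 0.73), 0.21 (SE 0.09, adjusted p 0.18) and 0.18 (SE 0.08, adjusted p 0.15), although the groups of WRKY53 and MYB30 did not overlap.

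The same light stress was given to plants with a water drop, in libraries that share none with the DPI comparison. There 1403 transcripts rose (7.66%) and 568 fell (3.1%) in the systemic leaf. Of the transcripts raised under DPI, 699 also rose under water, 53.4% of the DPI list and 49.8% of the water list. Of those lowered under DPI, 132 also fell under water, 15.8% and 23.2% of the respective lists, and 77 rose. The median water change was 0.21 for transcripts raised under DPI and -0.04 for those lowered.

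Whether a response differed between the drops was tested as an interaction of drop and light. It was more positive under DPI for 425 transcripts (2.32%) and more negative for 747 (4.08%). Any longer time under the drop in high light plants enters this interaction too, and its part was not tested. Among the zinc finger, DREB and ERF factors 17 of 26 were more negative under DPI and 0 more positive, and among the jasmonate genes 21 of 25. The WRKY and MYB factors had 10 of 18 more negative. Of the 10 transcripts taken from those the study ties to the ROS wave, 6 rose and 0 fell under water, with a median of 0.40. Over all tested transcripts 7.66% rose there. Among these 10, 1 interaction was more positive (GATA8) and 1 more negative (WRKY53), while that of MYB30 was -0.12 and was not called. ORA47 rose by 3.72 (SE 0.11, adjusted p 3.8e-26) under water, from 39.99, 40.8 and 37.4 to 535, 491 and 567, and its interaction was -1.82 (SE 0.16, adjusted p 2.3e-11). WRKY40 and JAZ1 rose by 2.95 and 2.81 under water, with interactions of -2.06 (SE 0.13, adjusted p 1.2e-15) and -1.58 (SE 0.14, adjusted p 2.6e-11). VSP2 and LOX2, which fell under DPI, rose under water by 2.32 (SE 0.15, adjusted p 2.5e-15) and 0.89 (SE 0.04, adjusted p 3.6e-22). Their interactions were -2.92 (SE 0.22, adjusted p 3.4e-13) and -1.16 (SE 0.05, adjusted p 4.6e-20). By contrast TCH4, CPK28, RBOHD and ERD10 had interactions of -0.02, 0.10, -0.02 and -0.08, with adjusted p-values of 0.93, 0.55, 0.94 and 0.51 and SEs of 0.06, 0.07, 0.06 and 0.05.

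The control libraries of the drops already differed for several of these genes, and they enter both the responses and the interaction. DDF1 stood at 3.70 ± 0.646 in water and 164 ± 18.6 in DPI controls, CYP94B3 at 11.2 ± 8.11 and 390.4 ± 46.0, and JAZ7 at 15.4 ± 4.89 and 132 ± 6.09 (mean ± SD, 3 libraries each). In high light libraries DDF1 was at 31.1 ± 4.19 under water and 421 ± 43.3 under DPI, and CYP94B3 at 81.1 ± 4.42 and 963 ± 14.4. For these jasmonate and DREB genes the smaller log2 response under DPI therefore went with a higher starting level. Clock transcripts also differed between the control groups, with LHY at 7645 ± 116 under water and 1521 ± 19.8 under DPI and RVE1 at 1056 ± 27.2 and 380.0 ± 3.69. Their part in the interactions was not tested.

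A response that was more positive under DPI was led by transcripts that did not pass the test under water. AT3G01345 had 202, 199 and 188 in water control and 172, 192 and 198 in water high light libraries, against its 4.98 times higher mean under DPI, and the interaction was 2.38 (SE 0.12, adjusted p 9.1e-19). EXO, an extracellular protein of brassinosteroid-driven growth, went from 249, 296 and 269 to 796, 742 and 747 under DPI, by 1.49 (SE 0.09, adjusted p 5e-16), and had 147, 127 and 163 and 139, 153 and 158 under water. Its interaction was 1.44 (SE 0.13, adjusted p 5.4e-11). AT1G51090 had an interaction of 1.55 (SE 0.21, adjusted p 5.8e-07) and XTH23 one of 1.21 (SE 0.28, adjusted p 0.0031). For bZIP44, a factor at only 9.94, 8.26 and 6.97 in DPI control libraries, the interaction of 1.68 (SE 0.45, adjusted p 0.016) was lost without DPI high light replicate 1 or water high light replicate 3 (adjusted p 0.051 to 0.056).

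At the other end, LTP3, LTP4, CYP81D11, AT1G26390 and CHS stood higher in DPI than in water controls and fell under light with DPI. LTP3 was at 3.33, 4.41 and 8.02 in water control and 14.3, 6.46 and 4.05 in water high light libraries, near the floor, while DPI controls stood above 700. The interactions of LTP3 and LTP4 were -4.43 (SE 0.44, adjusted p 5.4e-10) and -5.31 (SE 0.78, adjusted p 3.8e-06), and edgeR did not call that of LTP4 (adjusted p 1), whose systemic water libraries were all at 0. CYP81D11 and AT1G26390 rose under water, by 2.71 (SE 0.41, adjusted p 3.2e-06) and 1.71 (SE 0.41, adjusted p 0.0033), and fell under DPI, with interactions of -4.83 (SE 0.58, adjusted p 6.3e-08) and -3.78 (SE 0.58, adjusted p 1.1e-05). CYP81D11 was at 0 in all 3 water control libraries, so its water change and its interaction depend on the pseudocount, and the interaction lay between -7.95 and -2.87 under the alternatives. CHS likewise rose under water, from 176, 192 and 176 to 391, 328 and 344, by 0.96 (SE 0.11, adjusted p 1.5e-08), with an interaction of -2.06 (SE 0.16, adjusted p 9.1e-13). RVE1 changed by -0.12 (SE 0.07, adjusted p 0.36) under water, and its interaction was -1.55 (SE 0.11, adjusted p 3.1e-14). Of the 27 clock genes 6 fell and 2 rose under water. LHY and COL2 fell there too, with log2 changes of -0.40 (SE 0.04, adjusted p 7.6e-11) and -0.34 (SE 0.05, adjusted p 2.2e-07). PRR9 changed by 0.03 (SE 0.04, adjusted p 0.8) under water.

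**Figure D5:**
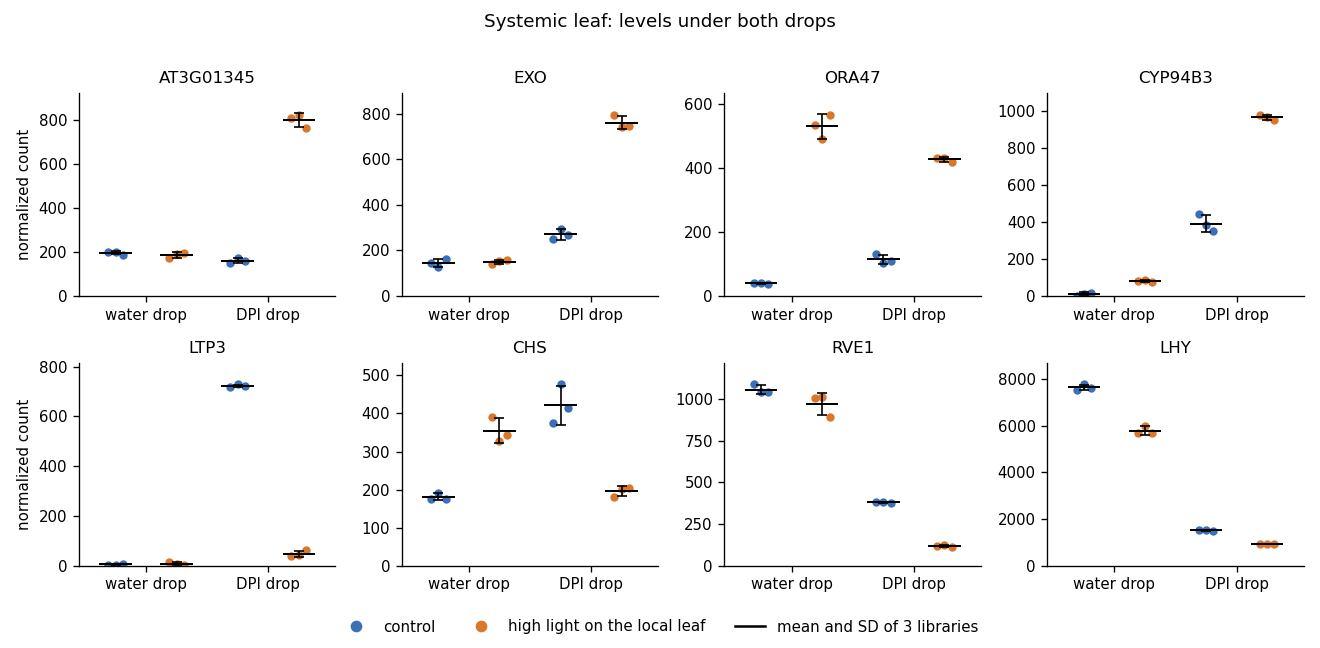
Normalized counts of 8 transcripts in the systemic leaf under the water drop and the DPI drop. Points are libraries, blue for control and orange for high light, and black marks are the mean and SD of 3 libraries. AT3G01345 and EXO passed the test under DPI and not under water, CHS rose under water and fell under DPI, and LHY stood at 7645 in water controls against 1521 in DPI controls.

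In the local leaf of DPI-treated plants, whose libraries are separate from the systemic ones, 3276 transcripts rose (17.9%) and 2914 fell (15.9%). Of the systemic rises 1089 also rose in the local leaf, 83.2% of the systemic and 33.2% of the local list, and of the systemic falls 554 also fell there, 66.3% and 19.0%. The interaction of leaf and light was more positive in the systemic leaf for 1106 transcripts (6.04%) and more negative for 1305 (7.13%). Under quantile normalization these were 1512 and 994, so that the positive share of calls was 60.3% rather than 45.9%.

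The most negative interactions named, among transcripts called in the main comparison, were those of heat shock genes, and 31 of 35 members of that list were more negative. AT1G07400 reached 4072, 3893 and 3715 in the lit leaf from 20.4, 20.3 and 15.3, AT1G59860 reached 12193, 12586 and 12383 from 32.9, 34.5 and 43.9, and AT2G29500 reached 5639, 6232 and 6093 from 40.8, 52.7 and 85.7. Their interactions were -10.65 (SE 0.47, adjusted p 2.9e-21), -9.17 (SE 0.27, adjusted p 3.1e-27) and -7.33 (SE 0.23, adjusted p 5.7e-26). HSP90.1 and HSP70, which also fell in the systemic leaf, had -6.46 (SE 0.12, adjusted p 5.2e-34) and -5.58 (SE 0.06, adjusted p 9.1e-42).

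The most positive interactions named, among transcripts called in the main comparison, included defence genes that fell far more in the lit leaf. Of the salicylic acid list 12 of 17 members were more positive in the systemic leaf. Of the unfolded protein response list 11 of 14 were more positive and 2 more negative, and 11 fell and 3 rose in the lit leaf. PR2, a secreted glucanase that marks salicylic acid responses, went from 1948, 2013 and 2009.7 to 168, 119.5 and 138 in the local leaf and from 996, 1086 and 945 to 862, 714 and 817 in the systemic leaf. Its systemic fall was -0.34 (SE 0.09, adjusted p 0.0064), a call lost without high light replicate 2 or control replicate 2 (adjusted p 0.066 to 0.092), and its interaction was 3.47 (SE 0.13, adjusted p 5.3e-24). PAD3 went from 90.6, 103 and 109 to 0 in all 3 high light libraries of the local leaf, so that its interaction depends on the pseudocount, and SAG13, a senescence-associated dehydrogenase, from 299 ± 35.3 to 11.7 ± 2.22 (mean ± SD). The interactions were 4.52 (SE 0.61, adjusted p 2.6e-07) and 3.47 (SE 0.31, adjusted p 1.2e-11). RD26 differed in direction: it rose in the systemic leaf and changed by -0.46 (SE 0.10, adjusted p 0.0005) in the local leaf, with an interaction of 1.46 (SE 0.15, adjusted p 2.8e-10). For AT3G01345, JAZ7 and CYP94C1 the interactions were 0.02 (SE 0.12, adjusted p 0.96), 0.15 (SE 0.21, adjusted p 0.72) and 0.01 (SE 0.21, adjusted p 0.99).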

How the data were processed

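Single-end, strand-specific RNA-seq libraries were made from pooled local or systemic leaves in 8 groups of 3. According to the paper's methods and the processing notes the authors checked reads with FastQC 0.11.7, aligned them to TAIR10 with STAR 2.4.0.1 and normalized counts with DESeq2 1.20.0. STAR ran at its default settings, which keep reads that match a limited number of loci. The counter, its strand setting and how it treated such reads are not given in the sources used here, so close copies may share reads. The deposited table, held as signal, gives normalized counts, read counts divided by a size factor per library, and 100% of its values became whole reads within 1e-06 of a read when multiplied back. The size factors recomputed from those reads differed from the ones used by at most 4.44e-15.

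Here log2(normalized count + 1) of the 18314 transcripts with at least 10 normalized counts in at least 3 libraries was fitted in limma 3.58.1 (R 4.3.3), with 8 group means over all 24 libraries, 16 residual degrees of freedom and a variance trend. A log2 change on this scale understates that of low transcripts. P-values are two-sided and Benjamini-Hochberg adjusted over all tested transcripts. Count tests (edgeR 4.0.16 quasi-likelihood, DESeq2 1.42.0) on the recovered reads were alternatives because the values are not raw counts. The other alternatives were pseudocounts of 0.5 and 5, no filter, a mean of at least 50, TMM, quantile normalization, only the groups compared, a replicate block and leaving out each library. Depth was 16216551 to 22547855 reads in the 6 libraries, and floors of 3 reads cover counting error only. Figures were drawn with matplotlib 3.10.9. RefSeq's annotation matched 32548 of 32833 identifiers.

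The comparisons, lists and rules were chosen with earlier results of these data known. Named were the 10 largest rises and falls with separate groups and a mean of at least 20, up to 4 called members of each of 20 lists with the largest change, 10 transcripts taken from those the study ties to the ROS wave, and, among transcripts called in the main comparison with a mean of at least 20 in a systemic group, the 4 most positive and negative drop interactions and the 3 most positive and negative leaf interactions. Members of lists given with their level or SE beyond these (such as HSP90.1, HSP70, HSFA2, VSP2, LOX2, JAZ1, EXPA1, MPK3, ERD10, ZAT12, PBS3, ICS1, TOC1 and GI) and list members given with a change alone (such as ZAT10, LOX4 and COR47) were picked after their values were seen. Sequence stretches for XTH18, BZIP60, AT1G53540 and HSFA2 were picked likewise. Groups share replicate numbers, and the main fit did not pair the samples by them. Deviations of same-numbered libraries from their group means correlated at 0.040, -0.0085 and 0.019 between the DPI systemic groups. They correlated at 0.031, 0.027 and 0.037 between the water systemic groups and at 0.048, 0.036 and 0.041 between the DPI and water systemic controls. Between systemic and local high light leaves under DPI they were 0.014, 0.025 and -0.0042. Whether the numbers mark pairs was not settled.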

Additional observations from a re-analysis of the deposited data

Results flagged for a closer look

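The results in this section stand out because the response to light differed between the drops or between the leaves by a test of the difference itself, the limma interaction. Between the drops, AT3G01345, which the annotation leaves uncharacterized, had an interaction of 2.38 (SE 0.12, adjusted p 9.1e-19). It was 2.31 under DPI and -0.07 under water. Positive interactions were also found for the cell growth protein EXO, at 1.44 (SE 0.13, adjusted p 5.4e-11), and for AT1G51090, at 1.55 (SE 0.21, adjusted p 5.8e-07). AT1G51090 changed by 0.34 (SE 0.15, adjusted p 0.14) under water. The factor bZIP44 had 1.68 (SE 0.45, adjusted p 0.016), a call lost without DPI high light replicate 1 or water high light replicate 3 (adjusted p 0.051 and 0.056). GATA8, which rose under both drops, rose more under DPI, with an interaction of 0.46 (SE 0.07, adjusted p 2.9e-06).

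More negative under DPI were the lipid transfer pair LTP3 (-4.43, SE 0.44, adjusted p 5.4e-10) and LTP4 (-5.31, SE 0.78, adjusted p 3.8e-06), the P450 CYP81D11 (-4.83, SE 0.58, adjusted p 6.3e-08) and AT1G26390 (-3.78, SE 0.58, adjusted p 1.1e-05). LTP4 was at 0 in every systemic water library, so its interaction equals its DPI response and depends on the pseudocount. That of CYP81D11, at 0 in the 3 water controls, depends on it too, and lay between -7.95 and -2.87 under the alternatives. WRKY53 rose under water by 0.87, had 0.21 under DPI and differed by -0.66 (SE 0.13, adjusted p 0.00067).

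Between the leaves under DPI, the camalexin gene PAD3 (4.52, SE 0.61, adjusted p 2.6e-07), PR2 (3.47, SE 0.13, adjusted p 5.3e-24) and SAG13 (3.47, SE 0.31, adjusted p 1.2e-11) were less lowered in the systemic leaf than in the lit leaf. The small heat shock genes AT1G07400 (-10.65, SE 0.47, adjusted p 2.9e-21), AT1G59860 (-9.17, SE 0.27, adjusted p 3.1e-27) and AT2G29500 (-7.33, SE 0.23, adjusted p 5.7e-26) fell in the systemic leaf and rose in the lit leaf. Systemic levels of these genes were under 42 normalized counts. The systemic fall of AT2G29500 was not called in edgeR or with only the groups compared (highest adjusted p 0.078). That of AT1G59860, whose groups overlapped, was lost without control replicate 3 (adjusted p 0.0502). That of AT1G07400 depends on the pseudocount.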

How the results depend on the processing

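The numbers of rises and falls behind the DPI drop, and of both interactions in each direction, stayed within 1.5 times under the alternatives run. Leaving out 1 library at a time gave 1084 to 1203 rises and 655 to 765 falls. The replicate block gave 1413 rises and 946 falls, 531 and 889 drop interactions, and 1211 and 1476 leaf interactions. Whether the numbers mark pairs was not settled, and behind the DPI drop high light replicate 2 correlated best with control replicate 3 (r = 0.037). Of 2520 combinations of a named result and an alternative 2439 kept direction and call, 72 lost the call, 1 gained it (MYB30, 0.18, adjusted p 0.024 with only the groups compared) and 8 turned direction, none of these called. Turned were HSFA2 behind the drop (-0.056 to 0.23 leaving out libraries) and the drop interactions of AT1G56520 (-0.073 to 0.058), WRKY48 (-0.082 to 0.44) and RBOHD (-0.038 to 0.0196, and 0.00068 under quantile normalization). With no filter the calls of RD29B, ACO4, XTH17, BAG6, ABI1, KCS1 and AT1G53540 were lost. With no filter 1 heat shock gene and 1 cuticle gene rose and 3 abscisic acid genes fell. Quantile normalization lowered 5 ROS, 2 ethylene and 2 photosynthesis genes and raised 1 cuticle gene, and the block lowered 2 ethylene genes. The cause was not tested, except that a mean of 50 leaves fewer transcripts to test (5 defence and 4 detoxification genes lowered). Leaving out libraries gave 1 to 2 heat shock and 1 to 2 cuticle genes raised, 0 to 2 light signalling genes raised, and 3 to 6 cell wall, 2 to 5 ROS and 3 to 6 abscisic acid genes lowered. Depth limits transcripts under about 3 normalized counts, such as LTP4, HSP17.6A and AT1G07400 in high light libraries.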
